A study of Rattus norvegicus with 6 samples.

Results

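Methylation was read at CpG sites near 60 genes of the Wnt, BMP, FGF, Notch and Hedgehog pathways in rat dorsal root ganglia (DRG). A site counted where the nearest annotated transcript start belonged to a rat gene whose symbol begins with Wnt, Fzd, Bmp, Fgf, Gdf, Notch, Jag, Dll or Gli followed by a digit, or with Fgfr or Bmpr, or is Ptch1 or Axin2. The rule uses names alone, although the genes were chosen with earlier results of these data known. This gave 298 of the 32674 sites in the authors' annotated table and 60 of 8016 genes. Wnt ligands held 39 sites near 9 genes, Frizzled receptors with Axin2 58 sites near 10 genes, and BMP and GDF ligands 49 sites near 12 genes. Bmpr1a, the only BMP receptor present, held 6 sites. Secreted FGFs held 51 sites near 10 genes, intracellular FGFs 18 sites near 4 genes, and FGF receptors 27 sites near 4 genes. Notch receptors and ligands held 23 sites near 6 genes, and the Hedgehog transducers Ptch1, Gli2 and Gli3 held 24 sites. Fgfr1op2, with 3 sites, matched by its symbol only, since it is not an FGF receptor. No annotated site mapped to Smo, Lrp5 or Lrp6, which the rule also names.

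The libraries came from adult male Sprague-Dawley rats, 8 to 9 weeks old per the labels' protocols, 3 weeks after surgery. Spinal nerve ligation (SNL), which produces lasting pain hypersensitivity in rodents, was done by tying the L5 and L6 nerves on the left. Sham animals or sides had surgery without a ligature, and the labels place that surgery on the opposite side, so libraries of both groups may share an animal. There were 3 SNL and 3 Sham libraries, with no statement on whether those of a group came from separate animals or pools, so the p-values reflect only how these libraries vary, which may be technical. Reduced representation bisulfite sequencing (RRBS) reads the ends of MspI (CCGG) fragments, and a methylation level is the percent of reads showing C rather than T at a CpG.

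Wnt proteins bind Frizzled receptors and stabilise beta-catenin, and Axin2 is a feedback inhibitor of that route. BMPs and most GDFs signal through serine/threonine kinase receptors to SMAD proteins. Secreted FGFs signal through tyrosine kinase receptors, and Notch through cleavage of a receptor bound by a ligand on a neighbouring cell. In the peripheral nervous system these pathways pattern neural crest derivatives, and they act in Schwann cells, satellite glia and sensory neurons after injury.

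Summed coverage was 27247702 to 34293779 reads per library. The authors' table holds sites with at least 100 reads in every library, and the lowest library at a site of these genes had a median of 172 reads. Replicates of a group differed by more than sampling noise (mean chi-square per site 1.57 to 2.65), so none was treated as a duplicate. Bulk tissue does not tell a change within a cell type from a change in cell mixture. Methylation at marker genes does not report their expression, so the label DRG could not be checked by expression. In the gene sums 0 of 12 sensory neuron, 0 of 9 Schwann and satellite glia, 0 of 8 leukocyte, 0 of 7 endothelial and pericyte and 0 of 10 fibroblast marker genes were called, as were 0.536% of all genes. At an unadjusted p under 0.05 there were 3, 2, 0, 0 and 1, against 13.7% of all genes. Of the single sites of these lists, 2 of 95, 1 of 41, 0 of 18, 0 of 24 and 1 of 60 were called, against 1.42% of all annotated sites. These called sites lay near the neuronal genes Nefl (-6.91 points, adjusted p = 0.0322) and Ntrk2 (4.99, 0.0470), the Schwann cell gene Egr2 (-12.8, 0.0311) and the perineurial gene Cldn1 (-5.08, 0.0334). The Egr2 gene sum stood at 53.2% ± 0.91 against 64.0% ± 1.62 with no overlap (adjusted p = 0.109). Mean site methylation of the sensory neuron list spanned 75.4% to 76.7% in SNL libraries and 75.9% to 77.0% in Sham libraries, and that of the leukocyte list 82.2% to 83.7% and 82.5% to 83.5%. The part of cell mixture in any result below was not tested.

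In Sham ganglia these genes held more sparsely methylated sites than the annotated table as a whole. Their mean level was 59.0% ± 0.79 (SD, n = 3), against 68.2% ± 0.43 (SD, n = 3) over all annotated sites, and the median site stood at 74.7% against 83.0%. Of the 298 sites, 75 (25.2%) lay under 20% methylation, 105 (35.2%) between 20% and 80%, and 118 (39.6%) over 80%. The corresponding shares of all annotated sites were 15.6%, 29.8% and 54.6%. CpG shores, the flanks of CpG islands, held 19.1% of these sites and 9.94% of all annotated sites.

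Families differed in level. FGF receptors averaged 73.3% ± 1.52 in Sham, Notch receptors and ligands 68.8% ± 1.62, Wnt ligands 66.2% ± 1.17, and Frizzled receptors with Axin2 62.3% ± 0.84 (SD, n = 3). Bmpr1a averaged 60.1% ± 2.05, secreted FGFs 59.2% ± 0.60, BMP and GDF ligands 52.7% ± 1.17, and intracellular FGFs 52.4% ± 0.28. The Hedgehog transducers stood lowest of the pathway families at 38.3% ± 0.63, and the 3 sites of Fgfr1op2 averaged 2.92% ± 0.40. Bmpr1a and secreted FGFs, and likewise BMP and GDF ligands and intracellular FGFs, lay within the spread between libraries of each other. The families also differed in their share of low sites: 13 of the 24 Hedgehog sites were under 20%, while 1 of the 27 FGF receptor sites was. The low Hedgehog sites were 5 of Ptch1 within 2 kb of the start, 5 of Ptch1 at 2 to 20 kb and 3 of Gli2.

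**Figure D1:**
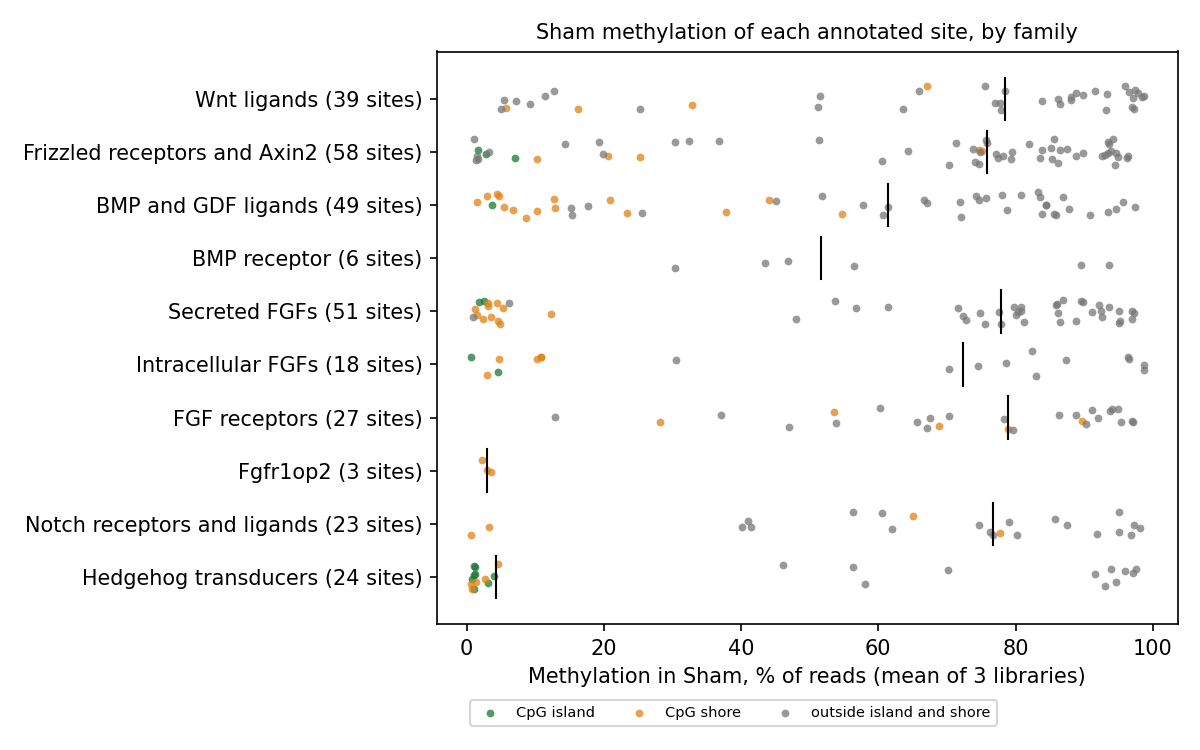
Methylation in Sham (percent of reads, mean of 3 libraries) of each of the 298 sites, by family. Each point is 1 site, coloured by CpG island, CpG shore or neither, and the black bar is the family's median. Points gather near 0% and above 60%, and the Hedgehog median of 4.29% lies among the island and shore sites.

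The gene sums, in which reads were added over all annotated sites of a gene, gave the extremes. Among Wnt ligands, Wnt3, which acts in limb and neural patterning, was highest at 96.7% ± 0.56 in Sham, and Wnt8a was lowest at 19.0% ± 3.01. Fzd8 was the highest receptor at 93.8% ± 1.56, although its only site lay 502.8 kb from the start, and Fzd9 was the lowest at 3.83% ± 0.32 (SD, n = 3).

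Gdf3, a ligand of early embryos, was the highest of its family at 89.5% ± 2.23, and Bmp10, a heart-expressed BMP, was the lowest at 21.6% ± 5.10. Secreted FGFs ran from Fgf3, at 2.16% ± 0.32, to Fgf1, at 84.4% ± 2.53. The intracellular FGFs, which bind voltage-gated sodium channels and are not secreted, ran from Fgf11 at 7.99% ± 0.42 to Fgf14 at 87.2% ± 1.44. Both FGF groups therefore held a gene under 10% and a gene over 80%.

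Receptors of the FGF family ran from Fgfr3 at 40.9% ± 4.24 to Fgfr2 at 87.5% ± 1.05. Among Notch genes, Dll4, a ligand best known from blood vessels, was lowest at 34.97% ± 6.48 and Notch3 was highest at 92.2% ± 1.58. Ptch1, the Hedgehog receptor and itself a target of the pathway, was lowest of the transducers at 11.5% ± 1.73, and Gli3, mostly a repressor of Hedgehog targets, was highest at 95.3% ± 1.32.

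Distance from the start sorted the sites. Within 2 kb the 36 sites averaged 19.7% ± 0.44 in Sham, against 23.4% ± 0.18 over all annotated sites at that distance. Between 2 and 20 kb the 67 sites averaged 39.2% ± 0.60, against 68.4% ± 0.46. Between 20 and 100 kb the 122 sites averaged 68.7% ± 1.08 against 73.2% ± 0.47, and beyond 100 kb the 73 sites averaged 80.5% ± 1.02 against 77.4% ± 0.47 (SD, n = 3).

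The widest gap to the other annotated sites thus lay 2 to 20 kb from the start. There 31 of the 67 sites (46.3%) were under 20%, against 14.3% of all annotated sites in that band, and 26 of the 31 belonged to 5 genes: Bmp4, Fgf11, Fzd9, Ptch1 and Wnt5a. With 1 value per gene the band averaged 54.8% over 26 genes, against 70.9% over all 3647 genes with a site there. Sites of a gene share fragments, so the gene-level values are the fairer comparison, and no test was made.

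**Figure D2:**
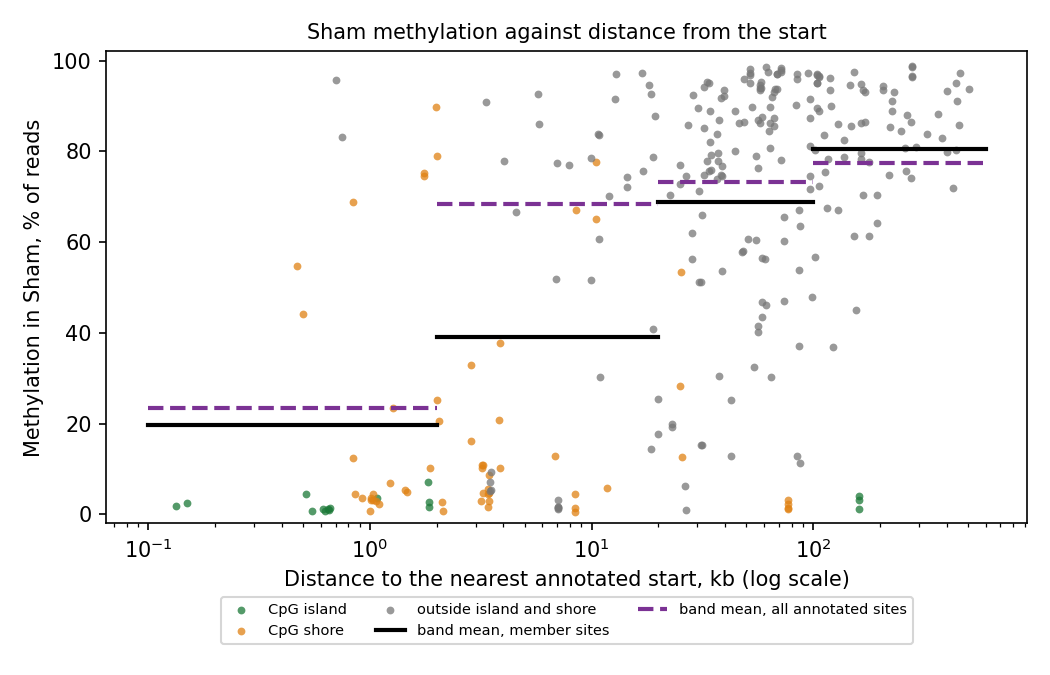
Methylation in Sham (percent of reads, mean of 3 libraries) of each site against its distance from the nearest annotated start (kb, log scale), coloured by CpG island, CpG shore or neither. Solid bars are means of these sites and dashed bars means of all annotated sites in the same distance band. The solid bar lies farthest below the dashed one between 2 and 20 kb, at 39.2% against 68.4%.

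Of the 75 low sites, 42 stood in runs of 3 or more CpGs, each run spanning less than the read length of 50 bases, so that CpGs of a run can share reads. Bmp4, a BMP that acts in neural crest and nerve development, held a run of 6 shore CpGs 3.4 kb upstream (chr15:22290168-22290204, rn4), with Sham levels of 1.58% to 8.61% per site. The next annotated site, 1116 bases farther upstream, stood at 66.7% ± 3.52. Fzd9, a Wnt receptor, had 5 CpGs 7.1 kb upstream (chr12:22574426-22574457), each at 1.10% to 3.23% with at least 905 reads per library.

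Wnt5a, a ligand of the beta-catenin-independent branch, held 4 intronic CpGs 3.5 kb downstream of its start (chr16:3785515-3785553) at 5.06% to 9.31%, outside any listed island or shore. Its 9 sites beyond 100 kb stood at 75.6% to 97.3%. Fgf11 had 5 shore CpGs 3.2 kb upstream (chr10:56626156-56626204) at 3.03% to 10.9%, and Ptch1 a run of 3 shore CpGs 8.4 kb from its start at 0.61% to 4.52%.

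Some of these runs lay far from the named start. Fgf5, which ends the growth phase of the hair cycle, was the gene with the most sites, 17, and 4 of them 77.2 kb upstream (chr14:12811848-12811872) stood at 1.28% to 3.15% in a shore. Its other 13 sites ran from 72.3% to 97.3%. Gli2, the main activator of Hedgehog targets, had 3 CpG island sites 161.0 kb upstream (chr13:31768255-31768289) at 1.29% to 4.06%, while its other sites stood at 56.3% or more. The nearest start assigns a site to a gene here, which is a matter of position only.

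**Figure D3:**
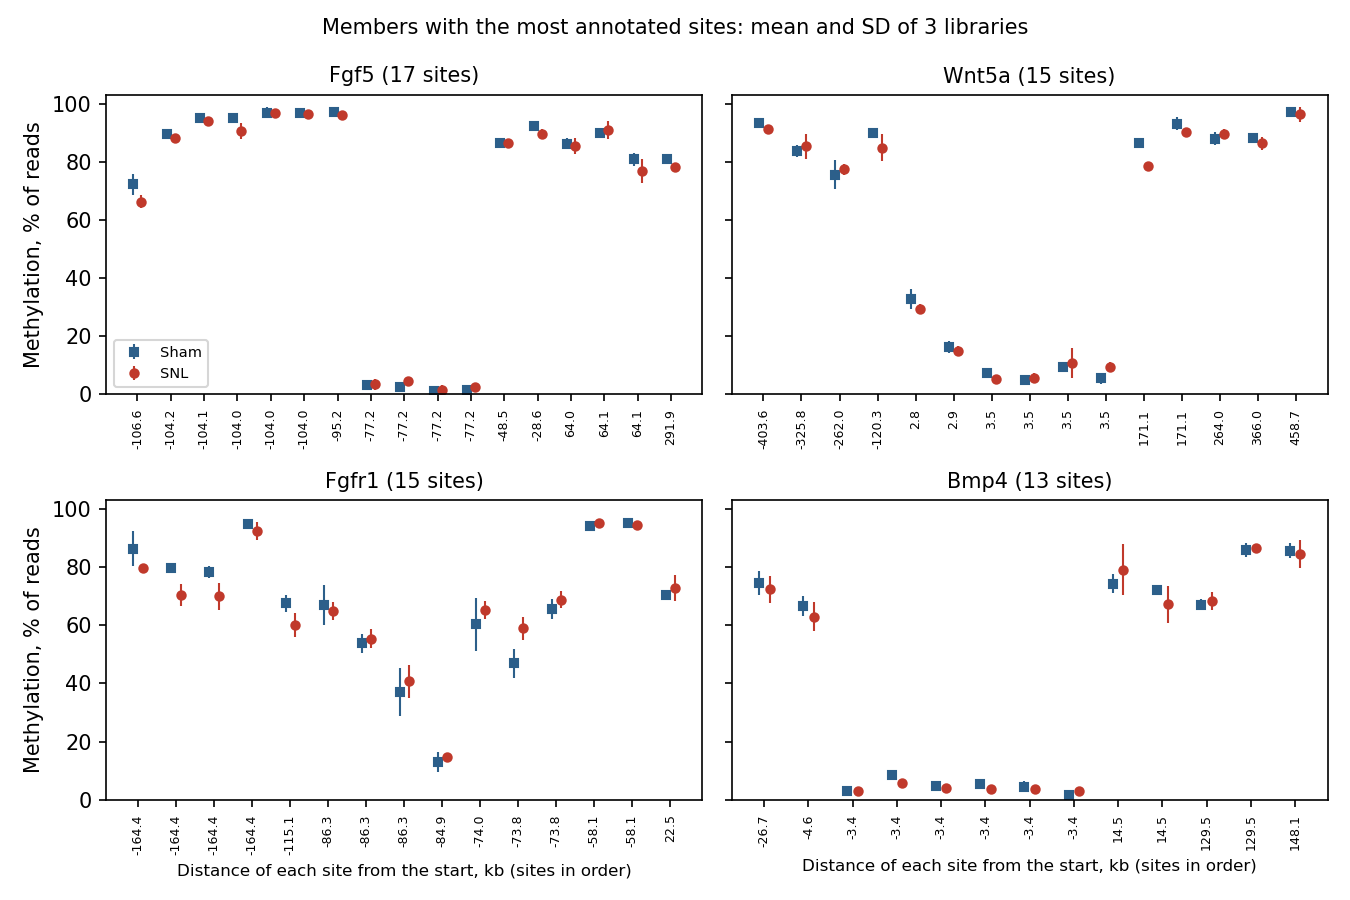
Methylation (percent of reads) at each annotated site of Fgf5, Wnt5a, Fgfr1 and Bmp4, the 4 genes with the most sites, in order of distance from the start (kb). Squares are Sham and circles SNL, each the mean of 3 libraries with its SD. Low runs stand out 77.2 kb upstream of Fgf5, 3.5 kb downstream of Wnt5a and 3.4 kb upstream of Bmp4, and SNL and Sham lie close together in all of them.

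Within 1 kb of a start, 8 genes had annotated sites. Fgf3 had 2 CpG island sites 0.133 and 0.150 kb upstream, with group means between 1.58% and 2.50%. Fgf12, an intracellular FGF, had 2 island sites 0.513 and 0.549 kb upstream at 0.66% to 4.60%. Ptch1 had 5 island sites 0.614 to 0.659 kb upstream (chr17:7087575-7087620), which averaged 1.10% ± 0.51 in Sham and 1.75% ± 0.15 after SNL (SD, n = 3).

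Not every site near a start was low. Gdf3 stood at 83.2% ± 4.18 and 95.7% ± 1.65 at 0.750 and 0.704 kb downstream, and Fgfr2 at 68.9% ± 1.47 at 0.838 kb upstream. Gdf15, a stress-induced ligand, stood at 54.8% ± 6.15 and 44.1% ± 4.64 at 0.468 and 0.498 kb downstream. Fgf9, at 0.839 and 0.861 kb downstream, had 12.3% ± 2.30 and 4.54% ± 2.07, and Fgfr1op2, at 0.917 kb, 3.52% ± 1.04. The widest gap between SNL and Sham at the 17 sites within 1 kb was -5.50 points (Gdf15), and the lowest adjusted p was 0.278 (Ptch1, 0.614 kb upstream, 3.05% ± 0.83 against 1.16% ± 0.70).

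Promoters of these genes are rich in CpG and MspI sites. Of the 60 genes, 50 had a promoter in the RefSeq table of the rat assembly GRCr8 (250 bases before to 50 after the start), and 80% of these held CCGG, the MspI site, which reads the same on both strands, against 51.4% of all 33469 promoters. The median promoter held 20.5 CpGs, against 7. In 7 genes the files list CpGs with 20 or more reads inside that window. In Fzd10 and Wnt8a every listed position fell on a CpG at a single shift among 13 tried, and the upstream 250 bases of both are shown because they place measured CpGs on sequence. Capitals mark the CpGs read.

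Fzd10, GRCr8 chr12:33737560-33737809, minus strand: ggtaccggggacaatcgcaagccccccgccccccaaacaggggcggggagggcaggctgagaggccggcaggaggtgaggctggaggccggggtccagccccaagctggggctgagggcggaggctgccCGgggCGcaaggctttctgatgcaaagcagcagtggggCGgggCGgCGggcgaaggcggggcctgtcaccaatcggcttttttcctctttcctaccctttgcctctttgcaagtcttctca
Wnt8a, GRCr8 chr18:26411583-26411832, plus strand: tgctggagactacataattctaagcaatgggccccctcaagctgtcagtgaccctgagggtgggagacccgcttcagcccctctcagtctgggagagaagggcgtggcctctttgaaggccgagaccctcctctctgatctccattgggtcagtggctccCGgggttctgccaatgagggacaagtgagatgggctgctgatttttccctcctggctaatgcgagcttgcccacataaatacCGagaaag

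Over the 250 bases Fzd10, a Frizzled receptor, held 15 CpGs and 4 CCGG sites, and Wnt8a, a ligand of early embryonic patterning, 6 CpGs and 1 CCGG site. The 5 CpGs read upstream in Fzd10 averaged 0.95% to 11.1% per site in Sham and 1.85% to 5.81% after SNL, and a 6th, 5 bases past the start, stood at 2.16% ± 0.44 and 3.05% ± 0.41 (SD, n = 3). In Wnt8a the 2 upstream CpGs stood at 6.27% ± 4.52 and 9.49% ± 7.09 in Sham, and those 9 and 40 bases past the start at 18.8% ± 7.78 and 19.6% ± 4.12. SNL was higher at all 4, by 2.77 to 6.77 points, but the groups overlapped at all 4, and the lowest adjusted p at either promoter was 0.632. Only 23 to 60 reads per library stood behind these values at the least covered library, so they are not among the annotated sites.

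The comparison of SNL with Sham asks where methylation differs after nerve injury. Methylation of these genes as a group lay close in both: 59.8%, 57.8% and 57.6% in SNL 1 to 3 and 58.2%, 59.1% and 59.8% in Sham 1 to 3. The means were 58.4% ± 1.20 and 59.0% ± 0.79 (SD, n = 3), and the groups overlapped. SNL was lower at 170 sites and higher at 128 (57.0% lower, against 61.3% of all annotated sites), and 261 sites (87.6%, the same share as of all annotated sites) differed by less than 5 points.

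Each site was tested by logistic regression on its reads, with an overdispersion moderated across all annotated sites, and p-values were adjusted over all of them by Benjamini-Hochberg. At an adjusted p under 0.05, 1 of the 298 sites (0.336%) was called, lower after SNL, against 1.42% of all annotated sites (1.24% lower and 0.181% higher), and at an unadjusted p under 0.05 there were 34 (11.4% against 13.1%). All 3 SNL libraries lay below all 3 Sham libraries at 34 sites and above them at 16, together 16.8% against 17.8% of all annotated sites (13.2% lower and 4.64% higher). In the gene sums 0 of 60 genes were called (0.536% of all genes), 5 had an unadjusted p under 0.05 (8.33% against 13.7%), and 8 showed no overlap (13.3% against 19.5%), 6 lower and 2 higher (15.8% and 3.69% of all genes). limma on logit values called 0 sites and 0 genes and gave 29 sites and 5 genes an unadjusted p under 0.05, as it did 10.7% of all annotated sites and 12.9% of all genes. Of the 72 windows of 1 kb that hold a site of these genes, 1 was called (1.39%, against 0.739% of all windows) 12 had an unadjusted p under 0.05 (16.7% against 10.5%), and 17 showed no overlap (23.6% against 15.5%), 11 lower and 6 higher (11% and 4.57% of all windows). For sites and genes the shares called, under an unadjusted 0.05 or free of overlap were each below those of the whole table.

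**Figure D4:**
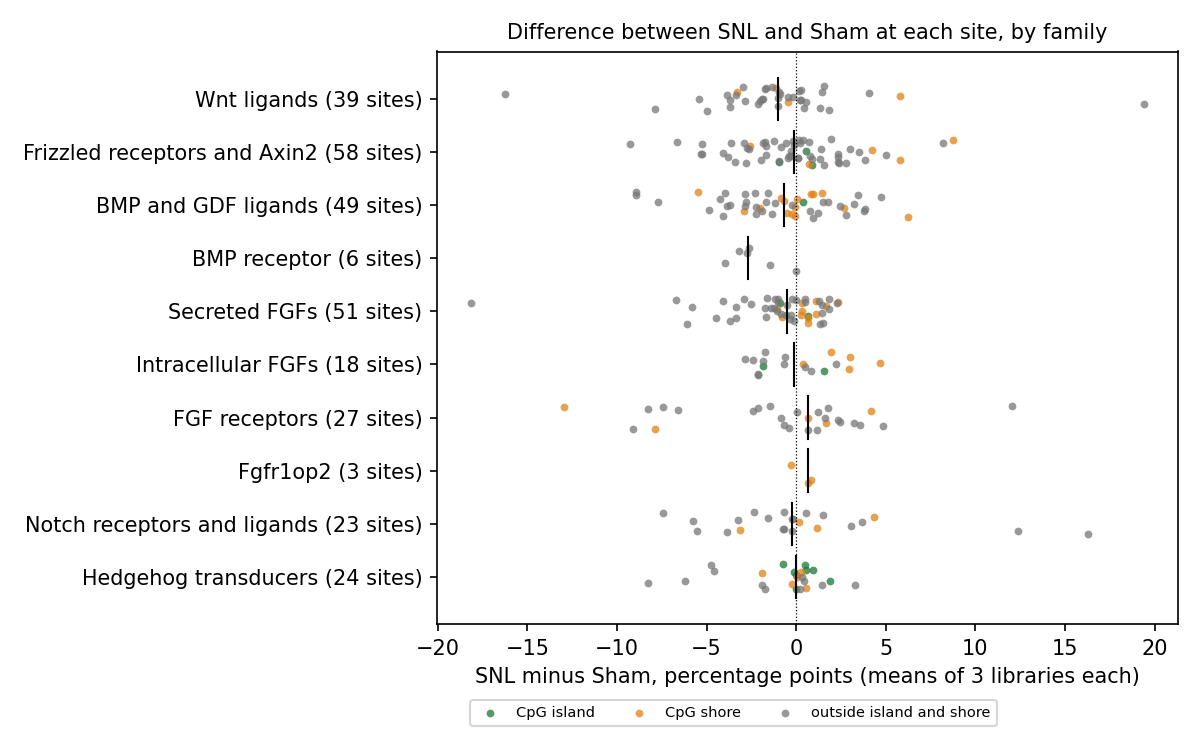
SNL minus Sham in percentage points (means of 3 libraries each) at each of the 298 sites, by family, with the family's median as a black bar and a dotted line at 0. Most points lie within 5 points of 0. The outlying points are a Wnt16 site at 19.4, Notch1 sites at 16.3 and 12.4, an Fgfr1 site at 12.04, an Fgf7 site at -18.2, a Wnt5b site at -16.3 and an Fgfr3 site at -13.0.

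The called site was assigned to Fgf7, keratinocyte growth factor, which signals from mesenchymal cells to epithelia through a splice form of Fgfr2. It lies at chr3 position 113369795 (rn4), 98.6 kb upstream of the Fgf7 start, and carries an intron flag whose transcript the table does not name. Methylation was 30.3%, 29.2% and 29.9% in SNL 1 to 3 and 49.0%, 45.3% and 49.6% in Sham 1 to 3. Every SNL library was thus well below every Sham library. The means were 29.8% ± 0.54 and 48.0% ± 2.37 (SD, n = 3), with 104 to 154 reads in a library. The level fell by 18.2 points (SE 1.40, adjusted p = 0.0186). That SE uses only the spread of the library percents, which can by chance be smaller than read sampling allows. The p-value instead rests on the read counts. No other CpG with 20 reads lay within 300 bases, so neighbours could not be compared. The call was lost without SNL 2 (adjusted p = 0.0745), Sham 1 (0.0569) or Sham 3 (0.116). It was also lost with the overdispersion of the site alone (0.805), but that fit called no annotated site at all. The other Fgf7 sites, 39.7 kb upstream, stood at 93.6% ± 0.50 and 92.2% ± 2.05 in Sham and 94.9% ± 3.39 and 91.1% ± 2.44 after SNL, and the gene sum did not pass (80.8% against 83.2%).

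The called window lay upstream of Fgfr3, a receptor for FGFs that restrains bone growth and is found in glia (chr14:82722000-82722999). It holds 6 positions, of which 82722398 and 82722399 are the strands of 1 CpG, read 712 or more times in sum. Methylation over them was 40.3%, 36.6% and 38.9% in SNL 1 to 3 and 44.0%, 49.7% and 50.1% in Sham 1 to 3, with no overlap. It fell by 9.32 points ± 2.24 (SE, adjusted p = 0.0429), from 48.0% ± 3.41 to 38.6% ± 1.86 (SD, n = 3). Inside it the site at position 82722436, 25.2 kb upstream of the start in a CpG shore, stood at 45.5%, 37.2% and 38.9% in SNL and 47.7%, 57.9% and 54.8% in Sham. That site did not pass (-13.0 points ± 3.95, SE, adjusted p = 0.0563). It did without SNL 1 (adjusted p = 0.0206) or Sham 1 (0.0297), but not without any other library (0.145 to 0.223). Of the 5 other positions within 300 bases, 4 were also lower after SNL, and the groups overlapped at all 5 but 82722266. The window's call was lost without SNL 2, SNL 3, Sham 2 or Sham 3 (adjusted p = 0.103 to 0.189) and with library offsets (0.0627) or the replicate number as a block (0.0530).

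The other FGF receptors were mixed. Fgfr1, which mediates neurotrophic effects of several FGFs, had 15 sites, 7 lower and 8 higher after SNL, and its gene sum was level at 71.0% ± 1.52 and 70.9% ± 0.87. At position 70983886 of chromosome 16, 73.8 kb upstream, methylation was 62.1%, 60.2% and 54.5% in SNL 1 to 3 and 50.7%, 41.2% and 48.9% in Sham 1 to 3. The means of 59.0% ± 3.95 and 46.9% ± 5.03 did not overlap and did not pass (adjusted p = 0.157). All 6 other positions with 20 reads within 300 bases were also higher on average, 1 of them the opposite strand of the same CpG. The groups overlapped at all of these but position 70983750.

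Farther upstream of Fgfr1, at 164.4 kb, the direction was the opposite. Positions 71074457 and 71074444, 13 bases apart, differed by -9.13 and -8.29 points (70.6% ± 3.82 against 79.7% ± 1.46, and 70.0% ± 4.61 against 78.3% ± 2.00), with adjusted p = 0.164 and 0.199. The window around them stood at 77.9% ± 1.72 and 84.4% ± 2.07 (adjusted p = 0.0713). Fgfr2 stood at 87.3% ± 0.62 and 87.5% ± 1.05 in its gene sum, and at Fgfr4, a receptor of liver FGF signalling, the gene sums of 86.7% ± 1.75 and 84.3% ± 5.53 overlapped.

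**Figure D5:**
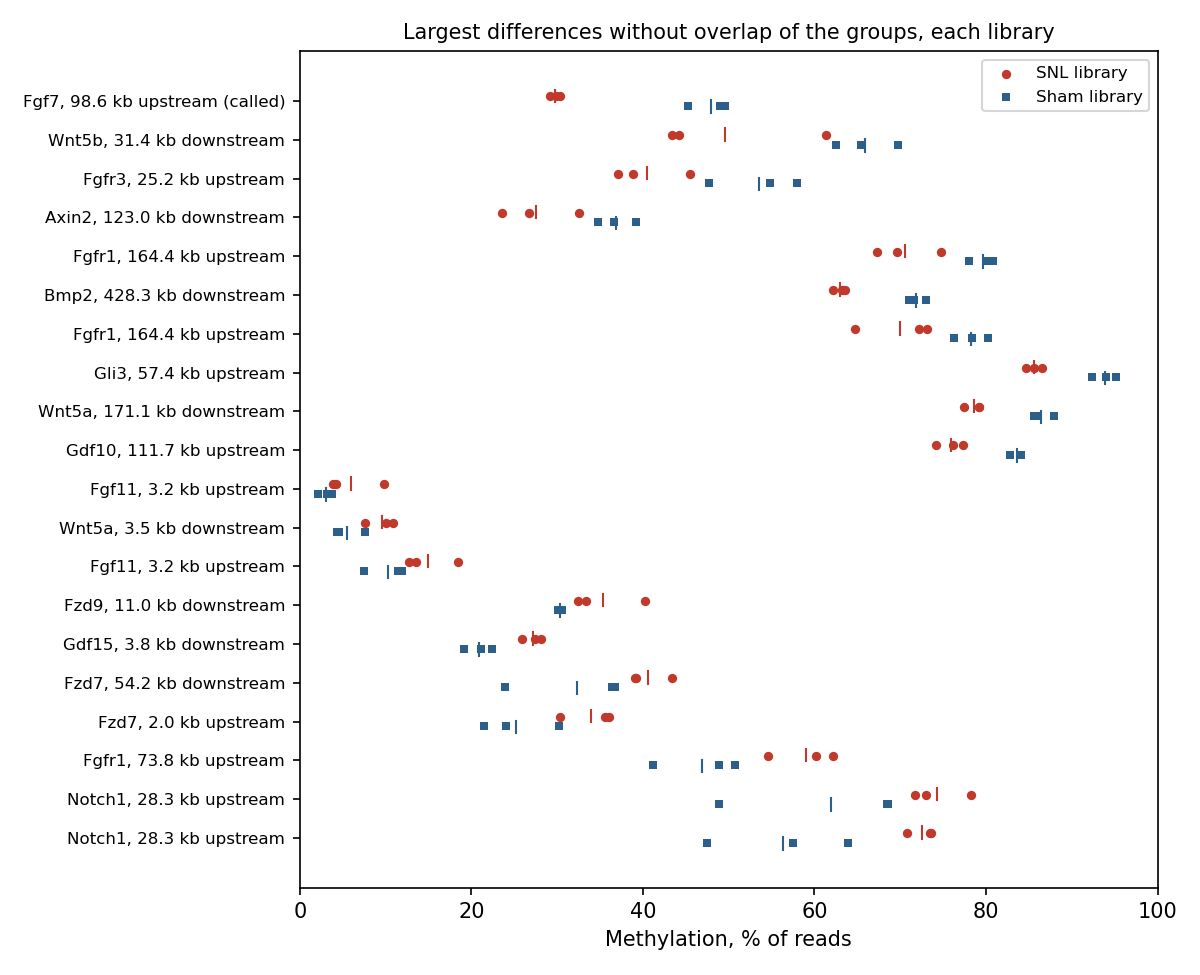
Methylation (percent of reads) in each of the 6 libraries at the 10 sites with the largest losses and the 10 with the largest gains among sites whose groups do not overlap, with gene and distance from the start. Circles are SNL and squares Sham libraries, and short bars are group means. Of these sites only the Fgf7 one, at 29.8% against 48.0%, passed the test.

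Among Wnt ligands SNL was lower at 26 of 39 sites, with group means of 65.2% ± 2.80 and 66.2% ± 1.17. The largest difference without overlap lay 31.4 kb downstream of the start of Wnt5b, a ligand related to Wnt5a (chr4, position 155732171). It stood at 61.3%, 44.2% and 43.4% in SNL 1 to 3 and 69.7%, 65.4% and 62.5% in Sham 1 to 3. SNL 1 stood near the Sham libraries and the other two well below (-16.3 points ± 6.23, SE, adjusted p = 0.105), and without SNL 1 the difference was -22.1 points with an adjusted p of 0.00979. Wnt5a had 1 of the named losses (position 3953093 of chromosome 16, 171.1 kb downstream, 78.6% ± 1.02 against 86.4% ± 1.26, adjusted p = 0.211) and 1 of the named gains (position 3785553, in the low intronic run, 9.53% ± 1.69 against 5.49% ± 1.79, adjusted p = 0.404).

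The gene sums of Wnt7a, which directs synapse formation, and Wnt9b, which acts in kidney and face development, had the lowest p of the ligands. Wnt7a stood at 91.4%, 89.7% and 90.1% in SNL and 91.7%, 92.1% and 93.9% in Sham (adjusted p = 0.256), and over its sites within 100 kb alone the difference was -0.19 points. Wnt9b, with 1 site 4.0 kb from its start, stood at 72.4% ± 4.80 and 77.8% ± 0.46 (adjusted p = 0.405), a difference of -5.41 points that was -3.16 without SNL 3. Both were free of overlap by narrow margins and neither passed.

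A site of Wnt16, a ligand known from bone and joint tissue, was unlike all others. At position 48522142 of chromosome 4, 87.5 kb upstream, methylation was 91.2%, 1.26% and 0% in SNL 1 to 3 and 0.658%, 0.503% and 33.1% in Sham 1 to 3, with at least 127 reads in each. SNL 1 was nearly fully methylated, Sham 3 was intermediate and the remaining libraries were near 0, so the groups overlapped and the mean difference (19.4 points ± 32.1, SE, adjusted p = 0.615) describes neither. It was the 1 site of the 298 whose libraries within a group spanned over 30 points, as 95 of all annotated sites (0.291%) did. The CpG 49 bases away stood at 57.1% to 71.5% in SNL and 58.1% to 73.7% in Sham. Leaving the site out changed the Wnt ligand difference from -1.02 to -1.56 points (66.1% ± 1.50 against 67.7% ± 0.71), while leaving out single libraries gave -2.63 (without SNL 1) to -0.19 points (without SNL 3). Bisulfite reads do not tell a C-to-T difference in the DNA from an unmethylated C, so these percentages may not be methylation, and the cause was not tested.

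For Frizzled receptors and Axin2 the group means were 62.1% ± 1.63 and 62.3% ± 0.84, with 30 sites lower and 28 higher. Axin2 had 12 sites, and the one 123.0 kb downstream (chr10, position 98417512) stood at 23.6%, 26.7% and 32.5% in SNL and 34.8%, 36.6% and 39.1% in Sham. The groups did not overlap, and the difference of -9.25 points ± 2.91 (SE) did not pass (adjusted p = 0.0669), although it did without SNL 3 (-11.7 points, adjusted p = 0.0210). The low runs of Fzd2 (island and shore) and Fzd9 (neither) differed from Sham by 0.28 and 0.08 points on average.

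Fzd7, a receptor of stem and progenitor cells, had 2 of the named gains. Position 58061722 of chromosome 9, 2.0 kb upstream in a shore, stood at 35.6%, 30.3% and 36.0% in SNL and 30.3%, 21.4% and 24.1% in Sham, where the lowest SNL and highest Sham library nearly touch (adjusted p = 0.248). Position 58117933, 54.2 kb downstream, was higher by 8.17 points ± 4.47 (SE, adjusted p = 0.446), and an intronic Fzd9 site 10.95 kb downstream by 5.03 points ± 2.47 (adjusted p = 0.379). The Fzd7 difference at 58117933 was 3.93 points without Sham 3, and the Fzd9 one 2.58 points without SNL 1.

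Fzd6, which acts in planar cell polarity, had the lowest p of the receptors in the gene sums. It stood at 70.1%, 65.2% and 66.6% in SNL 1 to 3 and 72.6%, 71.3% and 72.4% in Sham 1 to 3 over 2 sites 10.8 kb from the start. The means of 67.3% ± 2.50 and 72.1% ± 0.68 had no overlap and did not pass (adjusted p = 0.195), and next came Fzd9 (4.40% ± 0.52 against 3.83% ± 0.32, adjusted p = 0.525). Fzd1, like Axin2 the gene of this family with the most sites, stood at 80.8% ± 1.67 and 82.1% ± 2.29.

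BMP and GDF ligands averaged 51.9% ± 1.60 and 52.7% ± 1.17, lower at 30 of 49 sites. Bmp2, a bone-inducing BMP, had a site 428.3 kb downstream of its start (chr3, position 121801033) at 63.5%, 62.2% and 63.2% in SNL and 71.6%, 73.0% and 71.1% in Sham. The groups did not overlap, and the site missed the threshold (-8.91 points ± 0.70, SE, adjusted p = 0.0565). As at the Fgf7 site, this SE uses the library percents alone, with 300 to 359 reads in each. Its 3 neighbours within 300 bases, with 46 or more reads, had group means between 86.6% and 95.3%, and 1 of them was lower after SNL.

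Gdf10, which promotes axon sprouting after stroke, had a site 111.7 kb upstream at 75.9% ± 1.55 and 83.6% ± 0.71 (-7.70 points, adjusted p = 0.195). Gdf15 had the family's named gain 3.8 kb downstream in a shore, at 27.5%, 25.9% and 28.1% in SNL and 21.2%, 22.5% and 19.1% in Sham (adjusted p = 0.262). The lowest p of the gene sums belonged to Gdf10 (64.2% ± 3.48 against 69.3% ± 4.17, adjusted p = 0.489) and Bmp3 (72.3% ± 0.84 against 75.1% ± 2.79, adjusted p = 0.513), with overlap in both. Without Sham 3 these differences were -3.14 and -1.33 points, and without SNL 2 that of Gdf10 was -3.26.

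The low Bmp4 run was lower after SNL in every library, by a small amount. Its mean was 3.67%, 3.74% and 4.01% in SNL 1 to 3 and 4.58%, 4.64% and 4.73% in Sham 1 to 3, a difference of -0.85 points in the window sum (adjusted p = 0.582). Bmpr1a, a type I receptor for BMPs, was lower at all 6 of its sites, which stood 30.3 to 67.4 kb from the start, by 0.02 to 3.97 points. Its library means of 57.4%, 60.2% and 55.6% in SNL and 60.0%, 62.1% and 58.1% in Sham overlapped, and the gene sum did not pass (-2.03 points ± 1.87, SE, adjusted p = 0.668, and -3.64 to -0.78 with a library left out).

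Secreted FGFs averaged 58.2% ± 0.78 and 59.2% ± 0.60, lower at 31 of 51 sites. The lowest p of the gene sums was that of Fgf10, a limb and lung growth factor, whose 5 sites, all over 100 kb from the start, were each lower after SNL. Its gene sum was 68.4%, 67.0% and 68.1% in SNL and 68.8%, 68.7% and 71.5% in Sham, with the nearest libraries of the groups almost touching (adjusted p = 0.492), and without Sham 3 the difference was -0.96 rather than -1.88 points. Fgf5 was lower at 12 of its 17 sites, with gene sums of 76.7% ± 1.11 and 78.1% ± 1.94 (adjusted p = 0.616). Fgf8 and Fgf9, both active in embryonic patterning, differed by -0.77 and -0.53 points.

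Intracellular FGFs averaged 52.4% ± 1.16 and 52.4% ± 0.28. Fgf11 was higher at all 5 CpGs of its upstream shore run, which stood at 8.84%, 8.70% and 14.1% in SNL 1 to 3 and 8.38%, 8.05% and 7.51% in Sham 1 to 3. SNL 3 alone stood well above the rest. The CpGs at 56626193 and 56626156 had no overlap (4.66 points, adjusted p = 0.450, and 2.94 points, adjusted p = 0.466), and the gene sum did not pass (2.57 points ± 1.80, SE, adjusted p = 0.514, and 0.79 points without SNL 3). Fgf13, an X-linked regulator of sodium channels in sensory neurons, was lower at its 3 sites, with a gene sum of 79.6% ± 2.38 against 81.5% ± 3.29 (adjusted p = 0.778), a difference of -3.61 to -0.36 points with a library left out.

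Notch1, the most widely expressed Notch receptor, had the lowest p of all 60 genes in the sums. Its 2 sites lie 28.3 kb upstream, 3 bases apart (chr3, positions 4705937 and 4705940), and were read together. At 4705940 methylation was 73.4%, 73.6% and 70.8% in SNL 1 to 3 and 47.5%, 57.5% and 63.9% in Sham 1 to 3. SNL libraries were close together and the Sham libraries spread widely below them. The site was higher by 16.3 points ± 4.86 (SE, adjusted p = 0.0559) and just missed the threshold, which it passed with library offsets (adjusted p = 0.0275), while without Sham 1 the difference was 11.9 points (adjusted p = 0.251). At 4705937 the means were 74.3% ± 3.47 and 62.0% ± 11.3 (adjusted p = 0.193), and without Sham 1 the difference there was 5.83 points. The 3 further CpGs within 300 bases, read 23 or more times, were also higher on average but overlapped between the groups, and the gene sum of 73.5% ± 2.32 against 59.1% ± 9.62 had an adjusted p of 0.190. Without Sham 1 the sum differed by 8.84 points rather than 14.3.

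Of the remaining Notch genes, Notch3, a receptor of vascular smooth muscle, was lower at all 7 of its sites, by 0.16 to 3.84 points, with gene sums of 91.5% ± 0.10 and 92.2% ± 1.58 that overlapped. Jag1, a Notch ligand, was lower at its 3 sites, which lie 441.1 to 456.4 kb from the start (83.3% ± 2.38 against 86.5% ± 1.53, adjusted p = 0.415). The ligands Dll1 and Dll4 differed by -0.26 points each in their gene sums, and Notch2 stood at 64.8% ± 2.36 after SNL and 62.3% ± 4.22 in Sham.

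Of the Hedgehog transducers, Gli3 had 2 sites 57.4 kb upstream, 8 bases apart. At position 57925131 of chromosome 17 methylation was 86.5%, 84.7% and 85.6% in SNL 1 to 3 and 94.0%, 95.2% and 92.3% in Sham 1 to 3. The groups did not overlap, and the site did not pass (-8.24 points ± 1.00, SE of the library percents alone, adjusted p = 0.0879, 104 to 146 reads). The second, 57925139, was lower by 6.21 points, also without overlap. The gene sum was 91.3% ± 0.16 and 95.3% ± 1.32 (adjusted p = 0.191), while Gli2 and Ptch1 overlapped at 46.1% ± 4.47 and 47.7% ± 2.65 and at 10.5% ± 1.08 and 11.5% ± 1.73.

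By distance, the widest gap between SNL and Sham was in the farthest band. The 73 sites beyond 100 kb averaged 79.4%, 77.7% and 77.9% in SNL 1 to 3 and 79.5%, 80.4% and 81.5% in Sham 1 to 3, a difference of -2.12 points, with 56 lower and 17 higher. All annotated sites beyond 100 kb differed by -1.30 points with 66.9% lower. At 19 of the 73 sites all SNL libraries lay below all Sham libraries and at 1 above, where 16.7% and 3.38% of all annotated sites at that distance did. The 36 sites within 2 kb differed by 0.31 points, with 24 higher, and no overlap at 0 lower and 2 higher sites (7.15% and 6.53% of all annotated sites within 2 kb). SNL 1 and Sham 1 were nearly equal in the far band, and the gap was not tested against that of other genes.

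The authors' deposited table gives q-values of its own, and 9 of the 298 sites (3.02%) had a q-value under 0.05, against 4.54% of all annotated sites, 7 of them lower and 2 higher after SNL. They were the Fgf7, Bmp2, Fgfr3 and Gdf10 sites above, both Gli3 sites, the Notch1 site at 4705940, and the Fgfr1 sites at 70983886 and 71074457. The authors' deposited table gave Fgf7 a difference of -18.1 points (q = 3.05e-05) and Notch1 one of 17.0 points (q = 0.0107). All 9 had the same direction here.

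Other genes of the pathways, such as secreted antagonists, coreceptors, kinases and transcription factors, were read from lists. In the gene sums 0 of 26 measured Wnt partners, 0 of 23 BMP, 0 of 16 FGF and 0 of 13 Notch partners were called, against 0.536% of all genes, and at an unadjusted p under 0.05 there were 4, 5, 2 and 0, against 13.7% of all genes. limma called none of these either. Median differences of the lists were 0.07, -0.62, -0.61 and 0.63 points, against -0.79 points over all genes. The lowest p belonged to Prickle1 (-2.67 points, adjusted p = 0.165) and Tcf7l1 (-5.82, 0.179) for Wnt, Fst, an activin and BMP antagonist (-4.65, 0.181), and Acvr1 (-4.05, 0.286) for BMP, Spred2 (-2.37, 0.212) and Spry2 (3.28, 0.289) for FGF, and Maml3 (2.57, 0.537) and Adam10 (1.94, 0.550) for Notch.

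Of 7 measured Hedgehog partners 1 was called, higher after SNL, where 0.025% of all genes were called higher. It was the ligand Shh, at 29.1%, 29.4% and 29.98% in SNL and 22.5%, 23.5% and 21.9% in Sham (adjusted p = 0.0110), and next came Hhip, an antagonist (-2.45 points, adjusted p = 0.355). The Shh call was lost with the replicate number as a block (0.0628) and without SNL 2 (0.0785), SNL 3 (0.0686) or Sham 3 (0.115). It rests on 3 called CpGs at chr4 positions 2209638 to 2209650, in an exon and CpG island 9.1 kb from the start. They differed by 6.17 to 13.6 points and can share reads, so they are not independent measurements. These 3 were the only called sites among 28 of Hedgehog partners, where 0.181% of all annotated sites were called higher. None was called among 99 sites of FGF partners and 55 of Notch partners, against 1.42% of all annotated sites. Of 146 sites of Wnt partners 1 was called and of 142 sites of BMP partners 1, both lower, against 1.24% of all annotated sites called lower. They lay near Gsk3b, the kinase that marks beta-catenin for destruction, 30.5 kb upstream (43.7% ± 2.44 against 53.5% ± 3.23, adjusted p = 0.00337), and near Acvr1, a type I BMP receptor, 61.6 kb upstream (79.1% ± 3.01 against 86.2% ± 1.79, adjusted p = 0.0270). The Acvr1 call was lost with library offsets (0.0540) and without SNL 1, SNL 3, Sham 2 or Sham 3 (0.0527 to 0.146).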

How the data were processed

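Per the submitters' processing notes, Bismark 0.18.1, Bowtie2 and methylKit 1.3.3 were used on the RRBS reads, with the rat assembly rn4 (the labels' protocol text names a human one). Files deposited per library give, per CpG, the count of covering reads and the C and T percent. The authors also deposited a table, here restricted to its 32674 nuclear sites, with percent methylation per library, p-values, q-values, differences in percentage points, feature flags and the distance to the nearest start. Multiplying coverage by percent gave whole methylated counts. Transcripts were named through a RefSeq table of GRCr8, used for names and promoters only (7627 of 8123 transcripts, 94.0% of sites, matched).

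Reads of each site, of each gene's summed sites and of 1 kb windows with 3 or more sites of 20 or more reads were fitted by logistic regression on group. The Pearson overdispersion over 4 residual degrees of freedom was moderated (squeezeVar of limma, floor 1). Two-sided F tests followed, with Benjamini-Hochberg adjustment over all features. CpGs on 1 fragment share reads, so sums count some reads more than once. SE values are of the difference of group means and use only the spread of the library percents. They are not the error behind the p-values, which rest on read counts with the overdispersion floor. The fit was tested on simulated data. 3 libraries against 3 cannot give an exact permutation p under 0.1, so none is printed.

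The genes and lists were chosen with earlier results of these data known. Named in full were all called sites, genes and windows, the 10 largest increases and 10 largest decreases without overlap, and per family the 2 genes of lowest p in the sums, the gene with the most sites and the highest and lowest genes. Genes with a site within 1 kb of the start were named too, as were called pathway partners and the 2 with the lowest p per list. The low runs, the Wnt16 site and the distance bands were chosen after their values were seen. Alternatives were an unmoderated overdispersion, limma on logit values (pseudocount 1), library offsets, a replicate block and each library left out. Others were coverage minimums of 200 reads (50 in windows) and gene sums within 100 kb. In a further setting all 210270 sites with 20 or more reads were fitted and adjusted together. Calls in it were counted at the same annotated sites. Fits ran in R 4.3.3 with limma 3.58.1 and the data.table package (1.17.8). Tables and plots were made in Python 3.11.15, with matplotlib 3.10.9, numpy 2.4.6 and pandas 2.3.3.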

Additional observations from a re-analysis of the deposited data

How the results depend on the processing

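The 1 called site became 0 with an unmoderated overdispersion or limma on logit values, 2 with library offsets and 7 at 20 reads. Leaving out single libraries gave 0 to 5 (5 without SNL 1, 2 without SNL 3, 0 without SNL 2 or Sham 3). At 200 reads 0 of the 120 remaining sites were called, but the Fgf7 site, with 104 to 154 reads, was not among them. The 1 called window became 0 with an unmoderated overdispersion, limma or library offsets, and 0 to 2 with single libraries left out (2 without SNL 1, 0 without SNL 2, SNL 3, Sham 2 or Sham 3). At a minimum of 50 reads 0 of 36 windows were called, but the Fgfr3 window had fewer than 3 such sites and was not tested. No gene sum was called under an unmoderated overdispersion, limma, offsets, the block or any library left out (60 genes), at 200 reads (40 genes) or within 100 kb (53 genes). The 1 called partner became 0 with an unmoderated overdispersion or limma and 0 to 2 with a library left out (2 without SNL 1, 0 without SNL 2, SNL 3 or Sham 3), choices added after seeing the data. With the replicate number as a block 1 site, 0 genes, 0 windows and 0 partners were called. Same-numbered libraries deviated together only for number 2 (correlations -0.003, 0.148 and -0.067), and SNL 1 and SNL 3 correlated best with another number, so the numbers are not taken as pairs. Over all annotated sites 464 calls (87.3% lower) became 412 (57.8% lower) with offsets, since the median site shift of -0.10 (log2 odds) is then removed. They became 0 with an unmoderated overdispersion or limma, 129 to 522 with a library left out, and 339 with the block. At 200 reads 240 of 13554 sites were called. Fitted and adjusted with all sites of 20 or more reads, 807 of the same 32674 sites were called. Windows kept their number with offsets (220 and 221) but went from 84.5% to 60.2% lower, and the 43 genes became 40 (95.3% and 75% lower), or 10 with the block, 6 with limma and 3 to 74 with a library left out. FGF receptors differed by -2.80 points at 200 reads (main -0.70), and Hedgehog transducers by -2.19 with pooled reads and -1.80 with 1 value per gene (main -0.84). The Fgfr4 gene sum ran from -0.55 (without Sham 1, reversed) to 4.92 points with a library left out, and that of Ptch1 reversed within 100 kb (0.42 points). The causes were not tested. The least covered library had a median of 172 reads at these sites, and what difference that depth resolves is not reported here.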
